A study of Arabidopsis thaliana with 9 samples.

Results

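AT3G02200 and AT3G16670 are a pair of chromosome 3 genes of Arabidopsis thaliana that were chosen, 2 genes of 22746 probe sets measured, because their signals differed between a pair of mutants of the histone deacetylase HDA6, in opposite directions. AT3G02200, read by probe set 259123_at, had the lower signal in the substitution mutant of the pair, and AT3G16670, read by probe set 258419_at, the higher one. Since the contrast of the null mutant with the substitution mutant chose both genes, their levels are described here with no test. Both genes are protein coding in the TAIR10.1 annotation, which was used for names and gene order only, and each had 1 probe set with a single named gene. Other genes are called measured where a probe set named them alone. The rest may still be read by the 8730 probe sets unnamed here or by those with several genes.

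AT3G02200 encodes a protein with a PCI domain, assigned to subunit m of the translation initiation factor eIF3, a multi-subunit complex that helps to bring the small ribosomal subunit to an mRNA. PCI domains hold together the subunits of 3 related assemblies, eIF3, the lid of the 26S proteasome and the COP9 signalosome. AT3G16670 belongs to the family of Ole e 1-like proteins, small secreted proteins named after an olive pollen allergen, many of them found in plant cell walls and some joined to proline-rich or arabinogalactan parts. HDA6 removes acetyl groups from histones and takes part in the silencing of transposable elements and repeats.

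RNA from whole plants of the Col-0 strain, grown for 35 days at 21 ºC on Murashige and Skoog plates in constant light, was hybridised to 9 single-colour ATH1 arrays in 3 groups of 3. The groups were a double transformant of the Columbia background with no HDA6 mutation in its labels, a null mutant of HDA6 and an amino acid substitution mutant of HDA6. Both mutant groups are labelled rts1-1 and as EMS-induced mutations in HDA6 (EMS is a chemical mutagen), and the titles alone tell them apart, so the labels do not settle whether they are separate alleles or lines. The sources used here do not say what was introduced into the double transformant, which served as the reference group, or whether the mutants carry it too. Night humidity was 35% for double transformant array 1 and 53% for the other arrays. The probe set of HDA6 itself was unnamed here and was not analysed.

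Median signals ran from 31.8 to 36.8 per array, and precision is limited by having 3 arrays in a group. Correlation with the other arrays was lowest, on average, for double transformant 3 (0.946) and null mutant 3 (0.944), which also had the highest ratios of 3' to 5' signal of the GAPDH control, 2.15 and 1.95. Separate cultures behind the arrays of one group are not stated, so the spread that the p-values measure may be technical. In RNA from whole plants, fewer cells of a type and less RNA per cell cannot be told apart. Of the markers of plant parts, the root gene PYK10, whose product is a beta-glucosidase of ER bodies, and the photosynthesis genes RCA and PRK were bright in every group. Summed over 3 measured root markers of 15 listed the signal was 793 to 1137 in the double transformant, 843 to 1282 in the null mutant and 997 to 1299 in the substitution mutant, so the groups overlapped. Almost all of this sum was PYK10. The root hair expansin genes EXPA7 and EXPA18 were near background. EXPA7 ran from 2.86 to 7.79 in the double transformant and from 0.584 to 2.47 in the substitution mutant (-0.81 on the scale of log2(signal + c) with c = 4.03, limma adjusted p = 0.446). Its arrays in these groups did not overlap, as was so for 19.2% of all probe sets. EXPA18 and PYK10 had the opposite sign in this comparison, at 0.36 and 0.30 (limma adjusted p = 0.790 and 0.614). The summed photosynthesis markers overlapped, at 7894 to 12333, 7018 to 11495 and 7665 to 10389. The sum of 4 measured pollen and tapetum markers of 8 listed overlapped too, at 5.98 to 46.2, 2.43 to 23.7 and 3.98 to 7.26, but all 4 were below the double transformant in both mutants. Their median differences were -0.57 for the null mutant and -0.73 for the substitution mutant. These markers were dim, as even their sum was at most 46.2 against array medians of 31.8 to 36.8, so many of their values lie near background. None was called, that is, had a limma adjusted p under 0.05, as 0.761% and 0.747% of all probe sets did, and 2 of 4 had an unadjusted p under 0.05 in each mutant, as 11.1% and 11.8% of all did. The tapetum gene SHT, for a spermidine acyltransferase, was at 4.36 to 24.1 in the double transformant, 0.564 to 9.86 in the null mutant and 0.663 to 4.06 in the substitution mutant (-1.22 and -1.49, adjusted p = 0.414 and 0.278). PAP85, a seed storage gene and the only seed marker measured, was at 4.65 to 34.7 in the double transformant, 31.5 to 146 in the null mutant and 71.4 to 122 in the substitution mutant. It passed in neither mutant (1.98 and 2.37, limma adjusted p = 0.168 and 0.0901), nor in the average of both mutants against the double transformant (2.18, adjusted p = 0.0572). It gained the call in 1 of 22 alternative settings for the null mutant, 3 of 22 for the substitution mutant and 6 of 21 for the average. The part of these markers in the levels of the 2 genes was not tested.

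In the null mutant AT3G02200 was near the level of the double transformant, and in the substitution mutant it was well below both. Its signals were 331, 481 and 492 in double transformant arrays 1, 2 and 3. In the null mutant they were 398, 368 and 488. In the substitution mutant they were 142, 191 and 135. The highest substitution array thus lay below every array of the other groups, while the null mutant and the double transformant overlapped. Mean signals were 435 ± 90.0 for the double transformant, 418 ± 62.5 for the null mutant and 156 ± 30.6 for the substitution mutant (SD, n = 3). In order of level the double transformant and the null mutant, which stood next to each other, differed by less than the spread of their arrays, and the substitution mutant came last.

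AT3G16670 was lowest in the null mutant, intermediate in the double transformant and highest in the substitution mutant, with no overlap between the 3 groups. Its signals were 130, 68.0 and 94.5 in double transformant arrays 1, 2 and 3. In the null mutant they were 20.3, 64.3 and 17.7. In the substitution mutant they were 214, 258 and 178. Every null mutant array lay below every double transformant array, and every substitution array lay above them, but null mutant 2 came close to double transformant 2. Null mutant 1 and 3 stood below the median signal of their arrays, in a range where signals lie nearer to background. The means were 34.1 ± 26.2 in the null mutant, 97.5 ± 31.1 in the double transformant and 217 ± 40.0 in the substitution mutant (SD, n = 3).

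**Figure D1:**
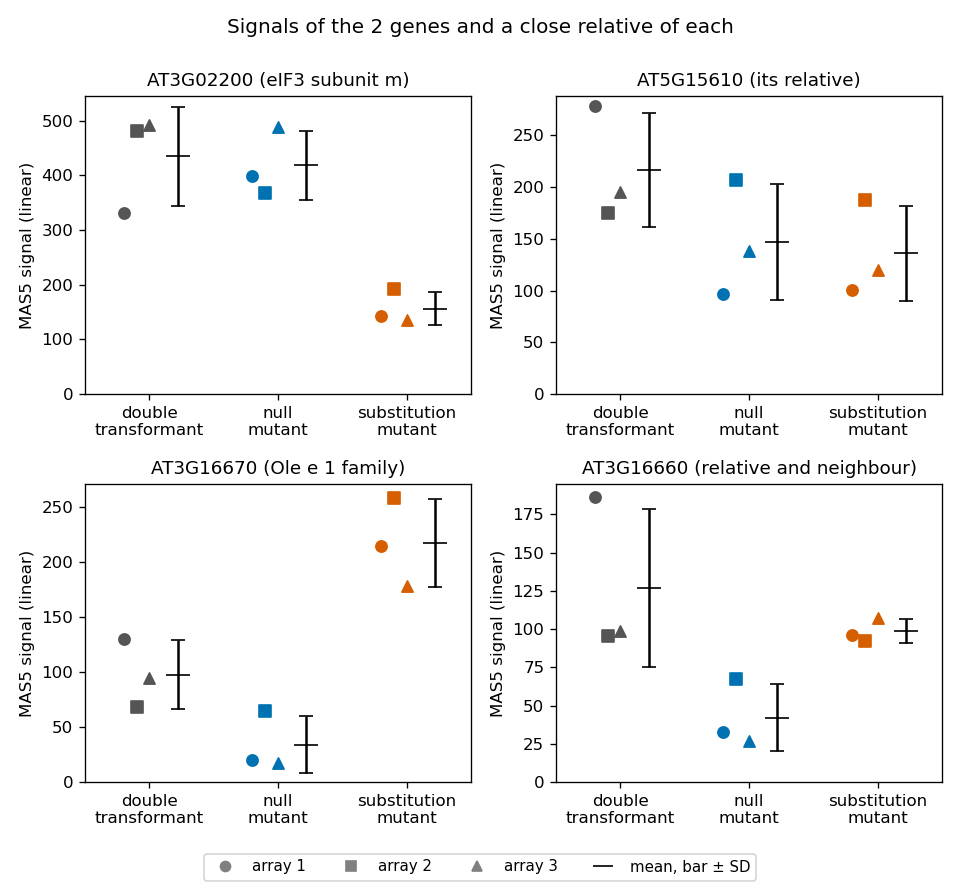
MAS5 signal on a linear scale for AT3G02200, AT3G16670 and a close relative of each, with 1 point per array (shape gives the array number) and the mean with its SD (n = 3) beside each group. The substitution arrays of AT3G02200 sit between 135 and 191, below all other arrays, and AT3G16670 runs from 17.7 to 64.3 in the null mutant, 68.0 to 130 in the double transformant and 178 to 258 in the substitution mutant, while AT5G15610 overlaps in all groups and AT3G16660 is lowest in the null mutant.

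On the log2(signal + c) scale the null mutant exceeded the substitution mutant by 1.41 ± 0.18 for AT3G02200 (SE from the limma fit of 9 arrays). Against the double transformant the null mutant differed by -0.04 ± 0.18 and the substitution mutant by -1.45 ± 0.18, which is 2.73-fold lower on this scale. AT3G16670 differed by -2.72 ± 0.38 between the null mutant and the substitution mutant, a 6.60-fold difference. From the double transformant the null mutant differed by -1.57 ± 0.38 and the substitution mutant by 1.15 ± 0.38, 2.97-fold lower and 2.22-fold higher. These differences share the mutant arrays that chose the genes and, between them, the double transformant arrays, so no p-value is given for them. For orientation, arrays of the null mutant and the substitution mutant did not overlap for 11.7% of all probe sets, those of the null mutant and the double transformant for 13.7%, and those of the substitution mutant and the double transformant for 19.2%. The order seen for AT3G16670, with every null mutant array below and every substitution array above the double transformant, was found for 13 probe sets (0.0572%), and the mirror order for 14 (0.0615%). A substitution group lying below all 6 other arrays, as for AT3G02200, was found for 405 probe sets (1.78%).

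The average of both mutant groups against the double transformant uses the same 6 mutant arrays and the same residual variance as the contrast that chose the genes, so it too is given as a description, with no test. For AT3G02200 it was -0.75 ± 0.16, and, as the array values show, this came from the substitution mutant, whose 3 arrays were all below the double transformant. With single arrays left out it stayed between -0.93 and -0.65. For AT3G16670 the averaged difference was -0.21 ± 0.33, the mutants lying on opposite sides of the double transformant, and it ran from -0.47 to 0.19 over 21 alternative settings.

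When single arrays were left out, the differences of AT3G16670 kept their sign, as did those of AT3G02200 that involve the substitution mutant. These signs could not change, because the arrays of the groups compared did not overlap, so only the sizes are informative. For AT3G02200 the null mutant minus the substitution mutant ran from 1.29 to 1.56, and the substitution mutant minus the double transformant from -1.63 to -1.35. The null mutant minus the double transformant ran from -0.23 to 0.06, on both sides of 0. For AT3G16670 the same differences ran from -3.25 to -2.42, from 0.93 to 1.37 and from -2.09 to -1.27. Null mutant 2 had the most weight for AT3G16670: without it the null mutant was -2.09 ± 0.25 from the double transformant, against -1.57 ± 0.38 with all arrays. Without double transformant 3 and null mutant 3, the arrays of highest GAPDH ratio, the null mutant minus the substitution mutant was 1.29 ± 0.20 for AT3G02200 and -2.42 ± 0.42 for AT3G16670. The residual SD of AT3G16670 on the log2 scale was 0.605, larger than that of 98.8% of the 500 probe sets nearest to it in level, whose median was 0.214. For AT3G02200 it was 0.267, larger than 81% of its 500 nearest, with a median of 0.170.

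**Figure D2:**
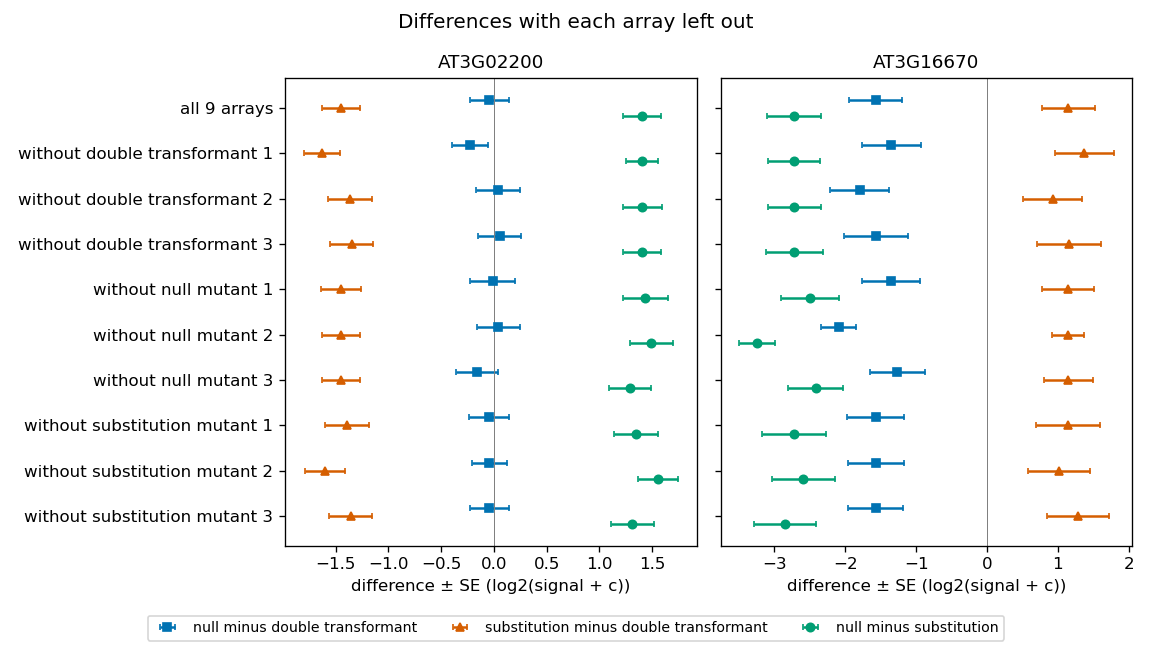
Difference on the log2(signal + c) scale (horizontal axis, point ± SE from the fit) for AT3G02200 and AT3G16670 with all 9 arrays and with each array left out (vertical axis), as null mutant minus double transformant, substitution mutant minus double transformant and null mutant minus substitution mutant. The null minus substitution difference stays from 1.29 to 1.56 for AT3G02200 and from -3.25 to -2.42 for AT3G16670.

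In each group 1 array has a title ending in rpt, a suffix the labels do not explain. Among those 3 arrays alone, with 1 per group and no error, the null mutant exceeded the substitution mutant by 1.53 for AT3G02200, and among the other 6 arrays by 1.34 ± 0.19. AT3G16670 differed by -2.90 among the rpt arrays and by -2.63 ± 0.44 among the others. Against the double transformant, AT3G16670 in the null mutant was at -2.46 among the rpt arrays and -1.13 ± 0.44 among the others, and in the substitution mutant at 0.44 and 1.51 ± 0.44. The signs of all these differences were fixed, because the arrays of the groups compared did not overlap for these genes. The null mutant and double transformant arrays of AT3G02200 did overlap, so that sign was free. Their difference was 0.26 among the rpt arrays and -0.20 ± 0.19 among the others. The double transformant rpt array is also the one of lower night humidity and the highest of its group for AT3G16670, and the part of either in these differences was not tested. With the suffix as a block the differences were unchanged, as each group holds 1 such array, and their SE was 0.16 for AT3G02200 and 0.39 for AT3G16670.

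AT5G15610, which encodes the other eIF3 subunit m protein, did not share the pattern of AT3G02200. Its signals were 278, 175 and 196 in the double transformant, 96.2, 207 and 138 in the null mutant and 100.2, 188 and 120 in the substitution mutant. All groups overlapped. It differed from the double transformant by -0.58 ± 0.28 in the null mutant (limma adjusted p = 0.484) and -0.67 ± 0.28 in the substitution mutant (adjusted p = 0.375), and between the mutants by 0.09 ± 0.28 (95% interval -0.53 to 0.71, adjusted p = 0.973). Over the 9 arrays its log2 values correlated with those of AT3G02200 at 0.355 (Pearson's r, a description of arrays that share groups), and the deviations from group means at -0.0800.

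Of 20 other eIF3 subunit genes listed, 4 had a probe set that named them alone: AT5G15610, the pair for subunit d, AT4G20980 and AT5G44320, and the subunit j gene AT1G66070. The others may be among the unnamed or shared probe sets. None was called in either mutant by limma, where 0.761% of all probe sets were called for the null mutant and 0.747% for the substitution mutant. At an unadjusted p under 0.05 the counts were 0 of 4 for the null mutant and 2 for the substitution mutant, where 11.1% and 11.8% of all probe sets passed that limit. All 4 were below the double transformant in both mutants, with medians of -0.19 and -0.31 on the log2 scale, where all probe sets had medians of 0.02 and -0.003. AT1G66070 differed by -0.12 and -0.41 (adjusted p = 0.865 and 0.411), and AT5G44320 by -0.14 and -0.02 (adjusted p = 0.806 and 0.988). Between the mutants, where 0.0396% of all probe sets were called, none of the 4 was called, at differences from -0.13 to 0.29, and none had an unadjusted p under 0.05, as 6.36% of all probe sets did.

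Other initiation factors and the complexes with related PCI subunits gave no calls either. Among 7 measured initiation factors of the 21 listed, the medians were -0.16 for the null mutant and -0.02 for the substitution mutant, with 1 and 0 at an unadjusted p under 0.05, against 11.1% and 11.8% of all probe sets. AT2G40290, for the alpha subunit of eIF2, which carries the initiator tRNA, was at -0.51 and -0.17 (adjusted p = 0.260 and 0.781), and AT1G36730, for eIF5, which acts in start codon selection, at -0.05 and 0.34 (adjusted p = 0.965 and 0.606). Of 13 proteasome lid genes 5 were measured, with medians of -0.14 and -0.09 and 1 and 0 at an unadjusted p under 0.05, against the same shares. Among them AT1G75990, for subunit RPN3, was at -0.45 and -0.09 (adjusted p = 0.480 and 0.927) and AT5G45620, for RPN9, at 0.15 and 0.10 (adjusted p = 0.683 and 0.799). Of 10 COP9 signalosome genes 1 was measured, CSN5B, for the subunit that removes the NEDD8 modifier from cullins, at -0.33 and 0.11 (adjusted p = 0.862 and 0.969), and it was not counted at an unadjusted p under 0.05. The difference of AT3G02200 in the substitution mutant, -1.45, lay outside the range of -0.67 to 0.34 spanned by these 17 genes, which is a description, as AT3G02200 was chosen on its value there.

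AT3G16660, a relative of AT3G16670 in the Ole e 1 family and its nearest protein-coding neighbour on that side, was also lowest in the null mutant but did not follow it upward in the substitution mutant. Its signals were 186, 95.7 and 98.6 in the double transformant, 32.5, 67.2 and 26.9 in the null mutant and 96.3, 92.4 and 107 in the substitution mutant. All null mutant arrays lay below all other arrays, a pattern of 1.11% of probe sets, and the substitution arrays overlapped with the double transformant. As for AT3G16670, null mutant 1 and 3 stood below the median signals of their arrays, 35.1 and 36.8, nearer to background. It differed from the double transformant by -1.53 ± 0.31 in the null mutant (limma adjusted p = 0.0514) and -0.29 ± 0.31 in the substitution mutant (95% interval -0.97 to 0.40, adjusted p = 0.797). Between the mutants it differed by -1.25 ± 0.31 (adjusted p = 0.424). The null mutant difference passed in 4 of 22 alternative settings, among them without null mutant 2 (-1.89, adjusted p = 0.00771), and its adjusted p over the alternatives ran from 0.00771 to 0.406.

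The arrays that were high or low within a group were the same for both neighbours in the double transformant and the null mutant. Double transformant 1 was the highest of its group for AT3G16670 and AT3G16660, and null mutant 2 the highest of its group. The deviations from group means correlated at 0.867 over 9 arrays, as rank 89 among 5914 loci above the median level, and the log2 values at 0.824, as rank 81 (Pearson's r, descriptions over arrays that share groups).

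Of the 26 other Ole e 1 family genes listed, 15 were measured. In the null mutant 1 was called, higher, and in the substitution mutant none, where 0.761% and 0.747% of all probe sets were called. At an unadjusted p under 0.05 there were 4 and 3, where the shares of all probe sets were 11.1% and 11.8%. The medians were 0.13 and 0.18, with 9 of 15 above the double transformant in each. The call was SAH7 (AT4G08685), whose signals were 192, 216 and 214 in the double transformant and 404, 290 and 411 in the null mutant. SAH7 rose by 0.80 ± 0.14 in the null mutant (limma adjusted p = 0.0195), a call that 9 of 22 alternative settings did not keep (adjusted p from 0.00212 to 0.303). Its signals were 301, 321 and 312 in the substitution mutant, 0.58 ± 0.14 from the double transformant (adjusted p = 0.0937), and the mutants differed by 0.22 ± 0.14 (adjusted p = 0.837). In the average of both mutants it rose by 0.69 ± 0.12 (adjusted p = 0.0167), which 7 of 21 alternatives did not keep, and it was the only family member called there, where 1.19% of all probe sets were called. Among single arrays its call in the null mutant was lost without double transformant 1 (adjusted p = 0.0652), double transformant 2 (0.0626), double transformant 3 (0.0752), null mutant 1 (0.0939) or null mutant 3 (0.0826). Between the mutants, no family member was called and 2 had an unadjusted p under 0.05, where 0.0396% and 6.36% of all probe sets did so, with differences from -1.25 for AT3G16660 to 0.62. The largest value in the substitution mutant was 0.98, for AT5G10130 (adjusted p = 0.337), whose signals were near background.

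**Figure D3:**
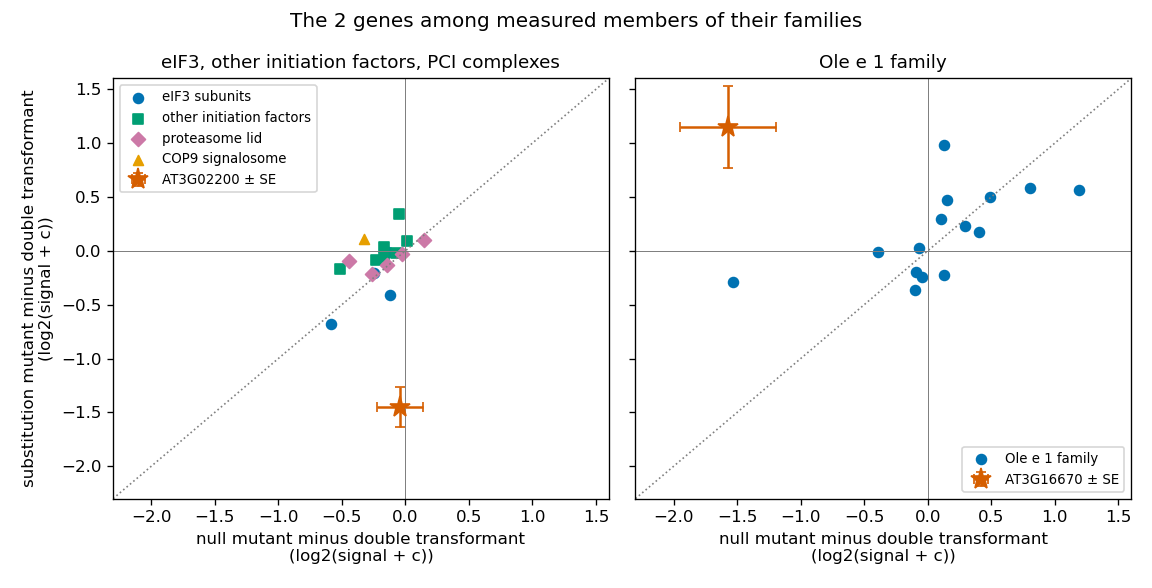
Each point is 1 gene, with the difference of the null mutant from the double transformant on the horizontal axis and that of the substitution mutant on the vertical axis, both as log2(signal + c); stars are AT3G02200 and AT3G16670 with their SE, and the dotted line marks equal differences. AT3G02200 lies at -0.04 and -1.45, below the eIF3, initiation factor, proteasome lid and COP9 genes, and AT3G16670 at -1.57 and 1.15, at the upper left of the other family members, among them AT3G16660 at -1.53 and -0.29.

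Few genes around either locus were measured, and AT3G16660 had the largest difference among them. Among the 10 loci on each side of AT3G02200 in annotation order, 6 were measured and none was called in any comparison, which at 0.0396% to 1.19% of all probe sets called says little about so few genes. Their differences ran from -0.35 to 0.36 in the null mutant, from -0.34 to 0.36 in the substitution mutant and from -0.58 to 0.22 between the mutants. The nearest were AT3G02190 at -0.06 and 0.16 (limma adjusted p = 0.924 and 0.776), SP1L3, a relative of the microtubule protein SPIRAL1, at -0.13 and -0.04 (adjusted p = 0.764 and 0.952), and AT3G02220 at -0.02 and 0.03 (adjusted p = 0.979 and 0.976). Among the 20 loci around AT3G16670, 9 were measured and none was called, against the same shares. AT3G16680 lay next to it, with signals at background in all groups. SWEET16, for a sugar transporter of the vacuole, was at 0.002 and -0.03 (adjusted p = 0.999 and 0.981), and AT3G16700 at 0.09 and 0.03 (adjusted p = 0.965 and 0.990). Apart from AT3G16660, which stood at -1.53, the measured loci around AT3G16670 lay at -0.25 to 0.19 in the null mutant, while all 9 were at -0.34 to 0.15 in the substitution mutant. AT3G03355 and AT3G03365, long noncoding RNA loci between AT3G16660 and AT3G16670, were not analysed here.

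**Figure D4:**
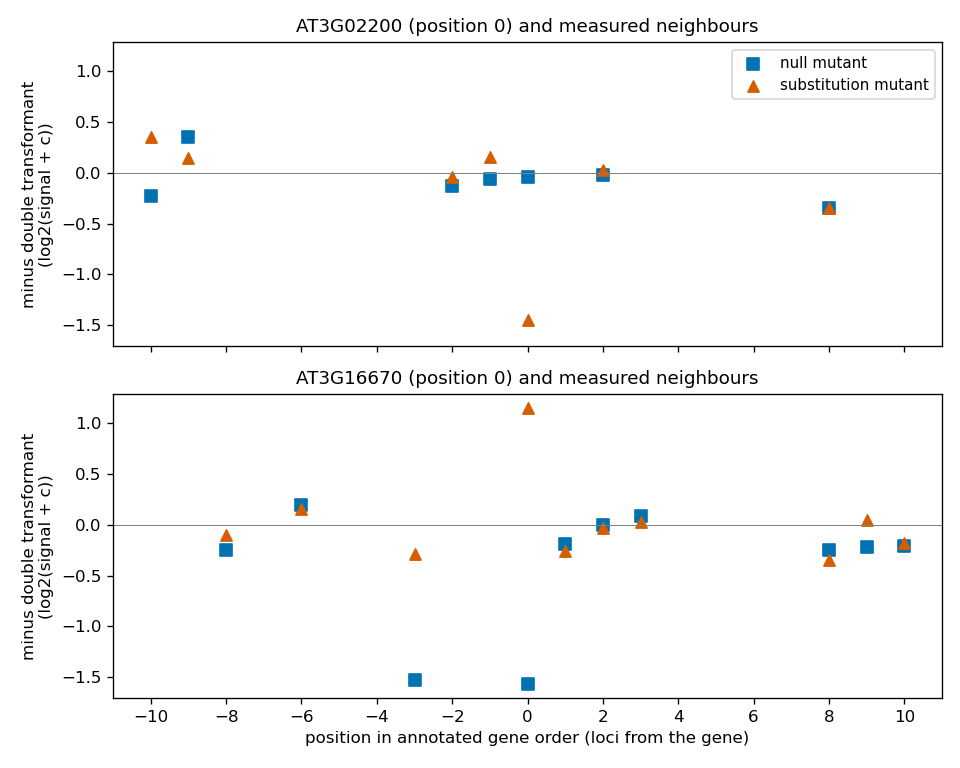
Difference from the double transformant on the log2(signal + c) scale (vertical axis) for AT3G02200 and AT3G16670, at position 0, and for the measured loci among the 10 on each side, by annotated gene order (horizontal axis). AT3G02200 stands alone at -1.45 in the substitution mutant, and in the null mutant AT3G16660, at position -3, is at -1.53 beside AT3G16670 at -1.57.

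The genes with the profile most like that of AT3G02200 over the 9 arrays were sought among 5913 other loci above the median level, by Pearson's r of log2 values. The closest were ATRER1A (r = 0.975), a sorting protein of the endoplasmic reticulum and Golgi, AT5G16610 (0.973), AT4G09830 (0.943), AT4G09640 (0.932) and SPY (0.932), a repressor of gibberellin signalling. Their differences in the substitution mutant ran from -0.55 for AT4G09830 to -0.30 for ATRER1A, against -1.45 for AT3G02200. These are descriptions, since a gene that follows AT3G02200 over the arrays shares its group difference by selection. By deviations from group means, which leave the group differences out, the closest were SPK1 (r = 0.980), which acts in cell shape through small GTPases, AT1G34340 (0.964), AT5G11700 (0.939), AT5G07960 (0.935) and GAUT15 (0.932). No gene was in both sets of 5.

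For AT3G16670 the closest profile was that of BHLH101 (AT5G04150, r = 0.955), a transcription factor of the iron deficiency response. BHLH101 had signals of 495, 320 and 359 in the double transformant, 201, 370.5 and 155 in the null mutant and 579, 470 and 477 in the substitution mutant. As for AT3G16670, null mutant 2 was the highest of its group, and here it overlapped with the double transformant. BHLH101 differed between the mutants by -1.15, and from the double transformant by -0.76 and 0.39, given without a test for the same reason. The next were AT2G39390 (0.945), AT5G01210 (0.943), AT1G49200 (0.933) and UPB1 (AT2G47270, 0.932), a transcription factor that controls peroxidases in the root tip. UPB1 differed by -2.03 between the mutants, with 141, 34.6 and 84.2 in the double transformant, 19.4, 87.2 and 21.6 in the null mutant and 211, 155 and 106 in the substitution mutant. By deviations from group means the closest were AT1G49200 (0.984), DPL1 (0.979), a sphingolipid lyase, AT4G16260 (0.972), the glutamate receptor-like channel gene GLR3.3 (0.954) and AT3G52580 (0.948). AT1G49200 was in both sets, and its null mutant minus substitution mutant difference was -0.57. AT3G02200 and AT3G16670 themselves correlated at -0.750 over the 9 log2 values, a sign fixed by the way they were chosen, and at -0.414 by deviations from group means.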

How the data were processed

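The deposited table holds linear intensity values, MAS5 probe set signals from 9 ATH1 arrays; per the submitters' processing notes the tools were MAS5 and GCOS, and no versions are named in the labels. After trimming 2% at each end the mean was 100.01 in each array, so the authors had scaled the arrays before deposit. Of 22810 probe sets, 64 controls were left out. Values were transformed as log2(signal + c), c = 4.03 being the 20th percentile, which understates changes of dim probe sets. All 9 arrays entered 1 limma 3.58.1 model (R 4.3.3, intensity trend), with Benjamini-Hochberg adjustment over 22746 probe sets and a threshold of 0.05; the fit was tested on simulated data. A platform annotation updated through RefSeq gave 13286 loci, each read by its brightest probe set; 8730 probe sets are unnamed here. A planned test of the pair in the average of both mutants is not used, because that average shares the mutant arrays and the residual variance with the choice of the genes. The genes and all lists were chosen with earlier results of these data known. Named genes were, by rule, the pair, a relative of each, measured genes among the 3 nearest loci on each side, up to 4 called members of each list (the 2 of smallest p between the mutants where a list had no call), and the 5 closest profiles by each measure. Arrays with the same number had deviations that correlated at -0.0409 to 0.154, so numbers were not treated as pairs. Alternatives were other offsets, scalings, variance priors, weights, blocks and left-out arrays. No sequences were used here.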

Additional observations from a re-analysis of the deposited data

Results flagged for a closer look

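AT3G16670 stood on opposite sides of the double transformant in the mutants, with every null mutant array below and every substitution array above it, and a difference of -2.72 between the mutants on the log2 scale. This gene was chosen for that difference, so it was not tested. AT5G07960, one of the loci whose deviations followed those of AT3G02200, showed the mirror order with a small difference of 0.35: its signals were 139, 151 and 151 in the double transformant, 159, 162 and 172 in the null mutant and 123, 136 and 126 in the substitution mutant. Its difference between the mutants did not pass (limma adjusted p = 0.646), and the opposite directions themselves were not tested. The order of AT3G16670 was found for 0.0572% of all probe sets and that of AT5G07960 for 0.0615%.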

How the results depend on the processing

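The described differences of AT3G02200 and AT3G16670 in the 3 comparisons between groups moved by less than 1 residual SD under each of 22 alternatives. The averaged contrast of AT3G02200, at -0.75, is not used as a test, so only its size is given. It was -0.71 with an offset of 4c, -0.73 with quantile normalization and -0.75 without a variance trend. Without the 2 arrays of highest GAPDH ratio, a setting chosen after seeing the data, it was -0.70. Single arrays left out gave -0.93 to -0.65. The replicate block gave AT3G02200 -0.75 in this contrast and changed no call of a relative or SAH7, but moved the substitution mutant's calls against the double transformant from 170 to 321. Those calls were 88 without a variance trend, 373 with array weights, 370 without the rpt arrays, 73 without the 2 arrays of highest GAPDH ratio, and 46 to 212 with single arrays left out. The null mutant's calls went from 173 to 113 without a trend, 61 without the rpt arrays, 58 with 6 arrays, 57 without the GAPDH pair, and 73 to 339 without single arrays. The averaged contrast went from 271 to 171 without a trend, 84 without the GAPDH pair, and 107 to 348 without single arrays. Between the mutants 9 calls became 5 with centred medians or the rpt block, 18 without the rpt arrays, 4 with 6 arrays, 0 without a trend (1344 at an unadjusted p under 0.05 by limma), 0 without the GAPDH pair (1121), and 0 to 48 without single arrays. The causes were not tested. Dim signals, below the median of about 32 to 37, limit what AT3G16670 and AT3G16660 can show in null mutant 1 and 3.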
